A study of Homo sapiens with 4 samples.

Results

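The MYC, MAX and MXD network comprises here 10 genes of the 20372 in the table: MYC, MAX, MXD1, MXD3, MXD4, MXI1, MNT, MLX, MLXIP and MGA. The members were selected by symbol with the counts of the same 24 h to 6 h contrast already known, in particular those of MYC and MXD3, so their differences between the times are given as a description with no test. RNA was sequenced from TPC1 cells, a human thyroid cancer line that carries the CCDC6-RET fusion, after exposure to BLU6864, a selective inhibitor of the RET kinase, in medium with serum. The comparison asked how expression changed between an early and a later time of continued RET inhibition. There were 2 libraries at 24 h and 2 at 6 h. Every library came from drug-treated cells of this single line, and vehicle-treated cells were not analysed here, so the values compare 2 times of exposure and not drug with no drug. The labels give the dose as 100 µM while the methods of the study state it in nM. The labels also mark the 24 h libraries, but not the 6 h libraries, as a re-analysis. A difference that goes with this mark, or with time in culture, cannot be told apart from the difference in exposure.

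MAX is the shared partner of the network. The MYC protein dimerises with MAX through a basic helix-loop-helix leucine zipper and activates transcription at E-boxes, whose canonical letters are CACGTG. The MXD proteins, MNT and MGA compete for MAX and repress from the same sites, the MXDs and MNT through the SIN3 corepressor, while MLX pairs with MLXIP (MondoA) or its relative ChREBP in the response to glucose. MYC is a classical target of growth factor and ERK signalling, and MXD genes are often linked to growth arrest and differentiation.

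Total counts ran from 23917056 to 27457040 per library. Spearman correlations over genes were at least 0.998 within a time and at most 0.941 between times, so no library stood apart from its pair. No source says that the libraries of a time came from separate cultures, so every p-value measures only the spread between these libraries, which may be technical. Of the thyroid markers, PAX8 had 19961 to 22045 normalized counts, TG had 97.6 to 235, and TSHR and NKX2-1 had 0 counts in all 4 libraries, so the thyroid label rests on part of its defining genes. Of 5 white blood cell markers, 4 had at most 3 counts in every library, with a summed level of 1.95 to 6.97. The endothelial markers summed to 47.8 and 26.3 normalized counts at 24 h and 542 and 507 at 6 h, nearly all of it KDR, with CDH5 at most 1 count in any library, and the part of this in the results below was not tested.

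Because E-boxes are the sequence that the members bind, the promoters of the members themselves were searched for CACGTG, which reads the same on both strands. RefSeq windows of 300 bases on GRCh38.p14, from 250 before to 50 after a gene start, were given for 9 of the 10 members, all but MYC, in 14 windows. The 3 promoters with a match are printed 5′ to 3′ on the strand of the gene for the 250 bases before the start, with the hexamer in capitals. MXD4 lies at chr4:2262110-2262359 on the minus strand, MNT at chr17:2401061-2401310 on the minus strand and MLX at chr17:42566850-42567099 on the plus strand.
MXD4: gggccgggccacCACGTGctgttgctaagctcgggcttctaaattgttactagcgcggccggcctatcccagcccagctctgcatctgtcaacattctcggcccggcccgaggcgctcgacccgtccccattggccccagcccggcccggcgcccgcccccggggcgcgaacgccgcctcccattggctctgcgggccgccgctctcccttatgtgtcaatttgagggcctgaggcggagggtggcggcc
MNT: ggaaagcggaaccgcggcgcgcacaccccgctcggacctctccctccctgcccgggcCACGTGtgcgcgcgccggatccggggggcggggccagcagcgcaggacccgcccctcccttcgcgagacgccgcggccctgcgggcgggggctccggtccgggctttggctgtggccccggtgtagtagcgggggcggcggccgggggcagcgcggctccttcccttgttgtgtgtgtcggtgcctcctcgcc
MLX: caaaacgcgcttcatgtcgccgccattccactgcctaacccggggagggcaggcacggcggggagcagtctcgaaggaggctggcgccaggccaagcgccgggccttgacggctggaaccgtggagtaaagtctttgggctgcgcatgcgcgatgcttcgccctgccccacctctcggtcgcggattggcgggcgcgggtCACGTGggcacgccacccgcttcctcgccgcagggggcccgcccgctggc
The hexamer begins 238 bases before the start in MXD4, 193 before it in MNT and 50 before it in MLX. Over all RefSeq windows, 7.26% of 35116 hold CACGTG, and by gene 8.77% of 27305 have at least 1 window with it, beside 3 of the 9 members. The related hexamer CACGCG, searched on both strands, was found in a window of MXD3, MXI1 and MGA, beside 13.5% of all genes. These matches are letters in a fixed window and not measured binding. MXD4, MNT and MLX, which hold CACGTG, all lay within 0.5 on the log2 scale between the times. MNT, at 0.48, passed 0.5 in some alternatives. Of the members whose windows lack CACGTG, MAX and MXI1 also lay within 0.5, and MXD1, MXD3, MLXIP and MGA lay beyond it. Nothing about the hexamer is read from this.

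MYC and MXD3 had the largest differences in the network and pointed in opposite directions. MYC was 5.71-fold higher at 24 h, while MXD3 was 13.6-fold higher at 6 h. MLXIP, MGA, MNT, MAX and MXD4 were higher in both 24 h libraries by smaller amounts. MXD1 was lower in both 24 h libraries, and MXI1 and MLX overlapped between the times. In libraries of bulk RNA, fewer cells of a kind and less RNA per cell cannot be told apart.

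The cutoffs were an unadjusted P below 0.01 together with a log2 fold change beyond 0.5, which the study's methods state for lower genes and which were applied here in both directions. Of the members, 3 lay on the higher side (MYC, MLXIP and MGA) and 2 on the lower side (MXD3 and MXD1). Among all 12876 genes tested, 17.4% lay on the higher side and 17.7% on the lower side. Both 24 h libraries exceeded both 6 h libraries for 6 members, beside 41.0% of all genes tested, and fell short of both for 2 members, beside 40.8%. Because the members were chosen on this contrast, nothing is read from these counts. The member just inside the fold cutoff was MGA at a log2 fold change of 0.50 and the member just outside was MNT at 0.48. MGA dropped below the fold cutoff with library size alone, without 24 h replicate 1 and without 6 h replicate 1, and MNT passed it with upper quartile scaling, without 24 h replicate 1 and without 6 h replicate 2. The median log2 fold change was 0.29 over the 10 members and 0.0029 over all genes tested.

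MYC (ENSG00000136997, chr8:128747680-128753674 on hg19), the growth-promoting transcription factor, had 2593 and 2649 normalized counts at 24 h and 465 and 453 at 6 h. These values come from raw counts of 2603 and 2722 at 24 h against 431 and 472 at 6 h. Both later libraries stood far above both earlier ones, and libraries of a time were close to each other. The means were 2621 ± 39.3 at 24 h and 459 ± 8.80 at 6 h (SD, n = 2), a log2 fold change of 2.51 with a standard error of 0.08. Across pairs of libraries, the 24 h to 6 h ratio of MYC ran from 5.57 to 5.85. By log2 fold change, MYC ranked 124 from the top of the 12876 genes tested.

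MAX (ENSG00000125952, chr14:65472892-65569413), the partner that MYC, the MXDs, MNT and MGA share, had 1163 and 1173 normalized counts at 24 h and 928 and 879 at 6 h. The difference was small beside that of MYC, but the times did not overlap. The means of MAX were 1168 ± 7.04 and 904 ± 35.1 (SD, n = 2), 1.29-fold higher at 24 h with a log2 fold change of 0.37 and a standard error of 0.08. The position of MAX in the table overlaps that of FNTB, a farnesyltransferase subunit, with 177 and 199 normalized counts at 24 h and 163 and 180 at 6 h, and whether counting used strand is not given in the sources used here.

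The MXD genes, whose products repress as dimers with MAX, did not move together. MXD3 (ENSG00000213347, chr5:176728462-176739758) had 75.7 and 74.9 normalized counts at 24 h and 1009 and 1047 at 6 h. The later libraries were thus nearly identical and far under the earlier ones. The means of MXD3 were 75.3 ± 0.556 and 1028 ± 26.4 (SD, n = 2), a log2 fold change of -3.77 with a standard error of 0.13. In raw counts MXD3 had 76 and 77 at 24 h against 935 and 1091 at 6 h, and it ranked 123 from the bottom of the genes tested. Its position overlaps PRELID1 and RAB24, which had log2 fold changes of -0.18 (adjusted p = 0.0810) and 0.14 (adjusted p = 0.416) from the quasi-likelihood test of edgeR, adjusted by the Benjamini-Hochberg method like every adjusted p here.

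MXD1 (ENSG00000059728, chr2:70124820-70170077), the founding MAD protein, had 201 and 186 normalized counts at 24 h and 297 and 294 at 6 h. It was lower at 24 h like MXD3, though far less so. The means of MXD1 were 194 ± 10.9 and 295 ± 2.33 (SD, n = 2), a log2 fold change of -0.61 with a standard error of 0.12. Its position overlaps that of the splicing gene SNRNP27, which had a log2 fold change of -0.69 (adjusted p = 3.59e-08 in edgeR's quasi-likelihood test), and reads of this pair may not be separable.

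MXD4 (ENSG00000123933, chr4:2249159-2264021) had 4197 and 4472 normalized counts at 24 h and 3717 and 3792 at 6 h. It was slightly higher at 24 h, opposite to MXD1 and MXD3, with means of 4334 ± 194 and 3755 ± 53.5 (SD, n = 2) and a log2 fold change of 0.21. MXI1 (ENSG00000119950, chr10:111967363-112047123), also known as MXD2, had 3431 and 3200 normalized counts at 24 h and 3436 and 3175 at 6 h. The libraries of MXI1 at one time spanned nearly the same range as those at the other, with means of 3315 ± 164 and 3305 ± 185.

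**Figure D1:**
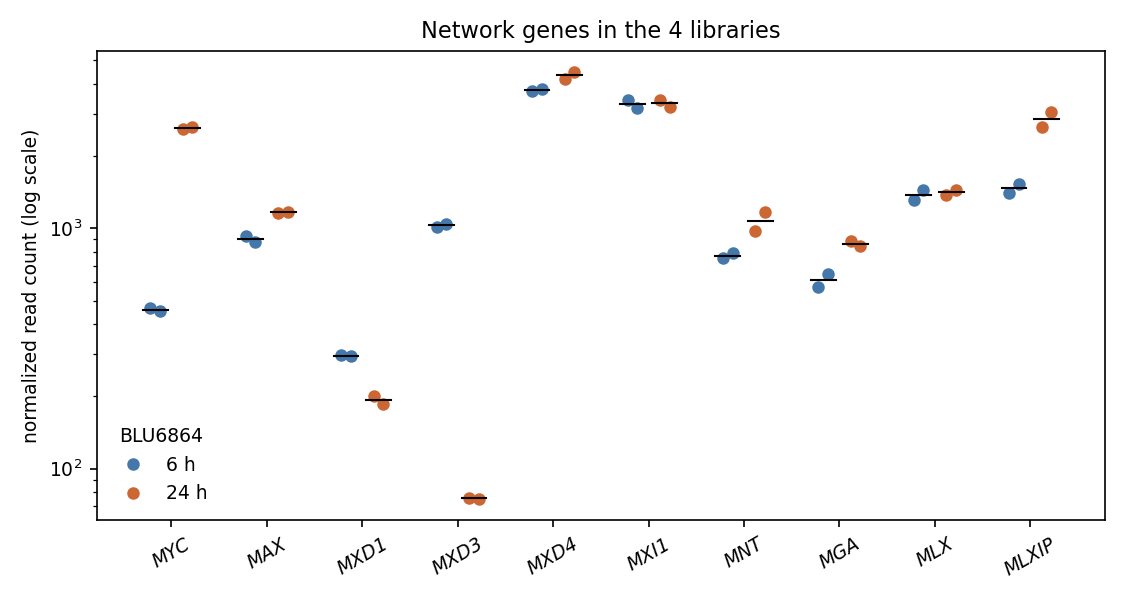
Normalized counts of the 10 members in each of the 4 libraries on a log axis, with points for libraries and black lines for the mean of the 2 libraries at a time. MYC goes from 459 at 6 h to 2621 at 24 h and MXD3 from 1028 to 75.3, while MXI1 and MLX lie at like levels at both times.

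MNT and MGA are the other antagonists that use MAX. MNT (ENSG00000070444, chr17:2287354-2304412), a broadly expressed repressor, had 978 and 1165 normalized counts at 24 h and 751 and 789 at 6 h. Both later libraries were above both earlier ones, but they differed from each other more than the earlier ones did. The means of MNT were 1072 ± 132 at 24 h and 769.98 ± 26.4 at 6 h (SD, n = 2), a log2 fold change of 0.48 with a standard error of 0.09. MGA (ENSG00000174197, chr15:41913422-42062141), a large protein that anchors the polycomb complex PRC1.6, had 882 and 848 normalized counts at 24 h and 571 and 646 at 6 h. It was 1.42-fold higher at 24 h, with means of 865 ± 24.1 and 608 ± 52.8 and a log2 fold change of 0.50 with a standard error of 0.09.

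In the MLX arm the times were separated for MLXIP and overlapped for MLX. MLXIP (ENSG00000175727, chr12:122516628-122631894), which encodes the glucose-sensing factor MondoA, had 2634 and 3054 normalized counts at 24 h and 1410 and 1527 at 6 h. Its means were 2844 ± 297 and 1469 ± 83.1 (SD, n = 2), 1.94-fold higher at 24 h, a log2 fold change of 0.95 with a standard error of 0.08. MLX (ENSG00000108788, chr17:40719086-40725257), the obligate partner of MondoA, had 1383 and 1447 normalized counts at 24 h and 1317 and 1448 at 6 h. The range at 6 h thus enclosed both values at 24 h, and the log2 fold change of MLX was 0.03 with a standard error of 0.07. The position of MLX overlaps PSMC3IP, a meiotic recombination gene, which had 30.9 and 14.6 normalized counts at 24 h and 92.8 and 96.9 at 6 h, few beside those of MLX.

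**Figure D2:**
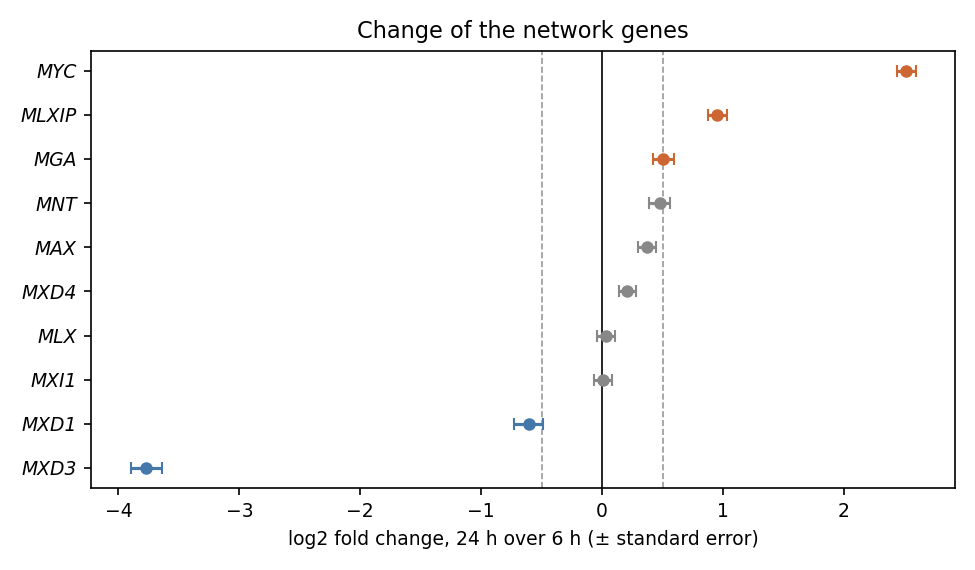
Log2 fold change of each member at 24 h relative to 6 h, as points with bars of 1 standard error, and dashed lines at the fold cutoffs of 0.5 and -0.5. MYC at 2.51 and MXD3 at -3.77 stand apart from the other 8 members, which lie between -0.61 and 0.95.

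Counts grow with transcript length, so levels of different members were compared as RPKM, the reads scaled for exon length and library size. The lengths came from GENCODE v44 and may differ from the exons counted on hg19. The exon union of MYC was 6109 bases, longer than the whole span of MYC on hg19. Orders, percentiles, shares and ratios between members are therefore approximate. At 24 h the order of mean RPKM levels was MXD4, MXI1, MYC, MLX, MLXIP, MAX, MNT, MGA, MXD1 and MXD3. At 6 h it was MXI1, MXD4, MLX, MXD3, MAX, MLXIP, MNT, MYC, MXD1 and MGA. MYC therefore stood in the upper part of the order at 24 h and near the bottom at 6 h, and MXD3 went from the upper part at 6 h to the last place at 24 h. Neighbours in the order had overlapping ranges in 0 of 9 pairs at 24 h and in 1 of 9 pairs at 6 h, MXI1 and MXD4.

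In RPKM, MYC had a level of 16.4 ± 0.246 at 24 h and 2.87 ± 0.0550 at 6 h (SD, n = 2). Among 12716 tested genes with a known length, MYC lay at percentile 78.8 at 24 h and at percentile 35.8 at 6 h. MXD3 went the other way. Its RPKM level was 0.607 ± 0.00448 at 24 h and 8.29 ± 0.213 at 6 h, at percentiles 15.3 and 62.3. MXD4 had 24.1 ± 1.08 RPKM at 24 h and 20.9 ± 0.298 at 6 h, and MXI1 had 21.5 ± 1.06 and 21.4 ± 1.20. These 2 MXD genes were the most abundant members by RPKM at 24 h and at 6 h alike. MLX had 12.7 ± 0.408 and 12.4 ± 0.830 RPKM, MAX had 7.13 ± 0.0430 and 5.52 ± 0.214, and MGA and MXD1 stayed under 2.

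The sum of RPKM levels over the 4 MXD genes changed little beside MXD3 itself, since MXD4 and MXI1 make up most of it. That sum was 47.3 ± 0.0511 at 24 h and 52.3 ± 0.700 at 6 h (SD, n = 2). Over all 10 members the summed RPKM was 97.8 ± 1.997 at 24 h and 81.7 ± 0.306 at 6 h. Of this sum, MYC made up 16.8% and 16.7% at 24 h, against 3.57% and 3.46% at 6 h. MXD3 made up 0.633% and 0.609% at 24 h and 9.98% and 10.3% at 6 h. The share of MXD4 and MXI1 together was 47.3% and 45.9% at 24 h and 52.6% and 50.8% at 6 h.

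**Figure D3:**
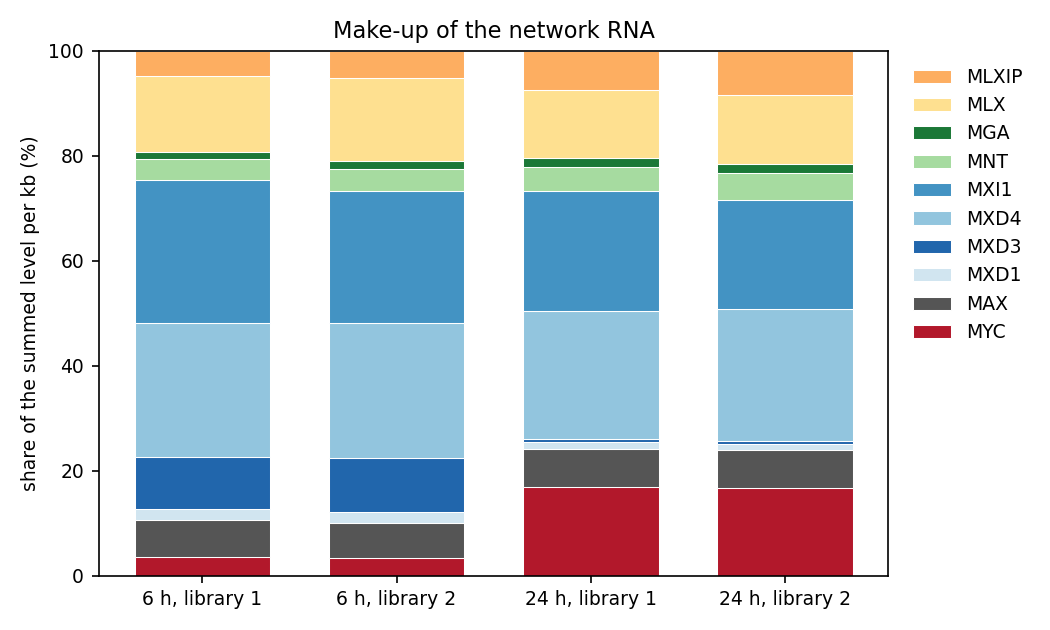
Share of the summed RPKM level of the 10 members held by each member, in percent, as stacked bars for the 4 libraries. The share of MYC is 16.8% and 16.7% at 24 h against 3.57% and 3.46% at 6 h, and the share of MXD3 is 0.633% and 0.609% against 9.98% and 10.3%, while MXD4 and MXI1 hold the largest shares at both times.

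Ratios of RPKM levels within a library describe the balance between partners in RNA, not in protein. MYC per MAX was 2.28 and 2.31 at 24 h and 0.513 and 0.528 at 6 h. By these lengths, RNA of MYC exceeded that of MAX at the later time and was under it at the earlier time. With the longest transcript as length, MYC per MAX was 1.89 and 1.92 at 24 h and 0.425 and 0.437 at 6 h. MYC per sum of its MAX-binding antagonists (MXD1, MXD3, MXD4, MXI1, MNT and MGA) was 0.304 and 0.307 at 24 h and 0.0509 and 0.0501 at 6 h, a 6.05-fold difference. Summed antagonist RNA remained above that of MYC in all 4 libraries. The antagonists per MAX went from 10.1 and 10.5 at 6 h to 7.51 and 7.54 at 24 h. The 4 MXD genes alone per MAX were 9.31 and 9.66 at 6 h and 6.67 and 6.60 at 24 h. Without MXD3, the other 3 MXD genes per MAX were 7.88 and 8.08 at 6 h and 6.58 and 6.52 at 24 h. MLXIP per MLX was 0.584 and 0.647 at 24 h and 0.328 and 0.324 at 6 h.

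The remaining relatives of MYC and MondoA were scarce. MYCN had 0 counts in all 4 libraries. MYCL had 18.9 and 28.2 normalized counts at 24 h against 10.8 and 7.68 at 6 h, which is 1.36 on the log2 scale with a standard error of 0.43 (adjusted p = 0.00479 in edgeR's quasi-likelihood test). This call was lost without 24 h replicate 2, without 6 h replicate 2 and under DESeq2. MLXIPL, which encodes ChREBP, had raw counts of 6 and 4 at 24 h and 8 and 12 at 6 h and was under the filter for testing. Neither relative that was detected came near the counts of MYC or MLXIP in any library.

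Genes with which the members act, and their known targets, were described by lists, where rose and fell mean past the cutoffs in edgeR. The lists were chosen with earlier results of these data known, so their shares and adjusted p are a description. Among 15 genes for MYC coactivators, 2 rose, 1 fell and 12 did not pass both cutoffs, with a median log2 fold change of -0.05. The risen and fallen shares were 13.3% and 6.67%, beside 17.4% and 17.7% of all genes tested. KAT2A, the GCN5 acetyltransferase, rose by 0.75 on the log2 scale (adjusted p = 4.79e-08), WDR5, a chromatin adaptor that MYC binds, rose by 0.52 (adjusted p = 7.91e-07), and ACTL6A, the BAF53 subunit, fell by 0.58 (adjusted p = 5.55e-08). The call of WDR5 was lost with library size alone and without 24 h replicate 1. The positions of KAT2A and ACTL6A overlap those of CTD-2132N18.3 and MRPL47, so their reads may not be separable. Among 15 genes that act on MYC protein stability, 2 rose, 5 fell and 8 did not pass both cutoffs. Their risen and fallen shares were 13.3% and 33.3%, beside the same 17.4% and 17.7%. USP36, a nucleolar deubiquitinase that stabilises MYC, rose by 1.18 on the log2 scale (adjusted p = 4.12e-12). AURKA, a mitotic kinase, fell by 3.67 (adjusted p = 8.80e-23). KIAA1524, which encodes CIP2A, an inhibitor of the phosphatase that destabilises MYC, fell by 3.02 (adjusted p = 4.58e-20). PIM1, a kinase, fell by 1.39 (adjusted p = 5.83e-14). Genes that protect MYC protein therefore stood among both the risen and the fallen.

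Of 19 genes of the SIN3 corepressor list, through whose products MXD proteins and MNT act, 1 rose, 3 fell and 15 did not pass both cutoffs, with a median of -0.17. This is 5.26% and 15.8% of the list, beside 17.4% and 17.7% of all genes tested. SAP30, a SIN3 subunit, fell by 1.26 on the log2 scale (adjusted p = 5.42e-12), and ING1, another subunit, fell by 0.83 (adjusted p = 1.51e-08). Of 13 genes of the MGA complex PRC1.6, CBX3, a heterochromatin protein, fell by 0.55 (adjusted p = 2.99e-07) and the other 12 did not pass both cutoffs. The risen and fallen shares of this list were 0% and 7.69%, beside 17.4% and 17.7% of all genes tested. The positions of ING1 and CBX3 overlap those of CARS2 and HNRNPA2B1, so their reads may not be separable. Of 13 germline genes that MGA represses, 3 were tested. MAEL rose by 1.81 (adjusted p = 0.00041) at low levels of 24.9 and 29.2 normalized counts at 24 h against 10.8 and 4.80 at 6 h, and its call was lost without 6 h replicate 2. The other 2, STAG3 and STK31, did not pass both cutoffs, with log2 fold changes of -0.43 (adjusted p = 0.0030) and -0.45 (adjusted p = 0.266), and the median of the 3 was -0.43. DAZL, named after its values were seen and not tested, had raw counts of 0 and 0 at 24 h against 17 and 10 at 6 h.

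Of the 39 tested genes on a list of 40 that MYC is known to activate, 22 rose, 3 fell and 14 did not pass both cutoffs, which is 56.4% and 7.69% of the list beside 17.4% and 17.7% of all genes tested. The median log2 fold change of the list was 0.61, beside 0.0029 for all genes. Because this list too was chosen with earlier results known, nothing about MYC activity is read from these values. RRS1, a ribosome assembly factor, had 599 and 577 normalized counts at 24 h and 140 and 113 at 6 h, a rise of 2.22 on the log2 scale with a standard error of 0.12 (adjusted p = 3.42e-15). MYBBP1A, a nucleolar protein, had 1038 and 1245 at 24 h and 319.5 and 318.5 at 6 h, a rise of 1.84 (adjusted p = 3.57e-15). NOP16, a nucleolar protein of large-subunit assembly, rose by 1.64 (adjusted p = 1.02e-11). The 3 genes with the largest rise thus belong to the nucleolus and ribosome assembly, as do many genes of the list. The 3 that fell were NME1, a nucleoside diphosphate kinase, by 0.70, ODC1, the first enzyme of polyamine synthesis, by 0.67, and HSPE1, a mitochondrial chaperonin, by 0.52 on the log2 scale (adjusted p = 1.00e-07, 4.41e-08 and 8.36e-05). The call of HSPE1 was lost with upper quartile scaling, without 24 h replicate 1 and without 6 h replicate 2. The position of NME1 overlaps NME2 and NME1-NME2, and that of HSPE1 overlaps HSPD1 and HSPE1-MOB4. Among the risen genes, RRS1 overlaps ADHFE1, MYBBP1A overlaps SPNS2, and NOP16 overlaps HIGD2A and ARL10. Reads of these genes may not be separable from those of the genes they overlap. CACGTG was in a promoter window of 9 of the 18 risen genes that have one and of 11 of the 16 others.

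Of 12 tested genes on a list that MYC is known to repress, 2 rose, 3 fell and 7 did not pass both cutoffs, with a median of -0.15. The risen and fallen shares were 16.7% and 25%, beside 17.4% and 17.7% of all genes tested. CDKN2B and CDKN1A, inhibitors of cyclin-dependent kinases, fell by 0.97 (adjusted p = 3.34e-12) and 0.53 (adjusted p = 2.71e-07), and the call of CDKN1A was lost with upper quartile scaling. PDGFRB, a growth factor receptor, fell by 1.48 (adjusted p = 1.21e-10). THBS1, the secreted protein thrombospondin 1, went the other way with 18106 and 20866 normalized counts at 24 h and 559 and 510 at 6 h, a rise of 5.19 (adjusted p = 1.93e-24). CDKN1C, the inhibitor p57, rose by 1.499 (adjusted p = 5.90e-14). The risen and the fallen genes of the list both include inhibitors of cyclin-dependent kinases.

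Among 9 tested targets of MondoA and ChREBP, 3 rose, 1 fell and 5 did not pass both cutoffs, with a median of 0.42. The risen and fallen shares were 33.3% and 11.1%, beside 17.4% and 17.7% of all genes tested. TXNIP, an arrestin that limits glucose uptake and is a classical MondoA target, had 7461 and 8037 normalized counts at 24 h and 15427 and 12251 at 6 h, a fall of 0.84 on the log2 scale (adjusted p = 5.50e-09). It was therefore lower at the time when MLXIP was higher. SCD, which makes monounsaturated fatty acids, rose by 0.66 (adjusted p = 4.30e-07), KLF10 rose by 0.59 (adjusted p = 4.99e-07), and ACACA, the enzyme of malonyl-CoA synthesis, rose by 0.52 (adjusted p = 7.45e-07). The call of ACACA was lost with library size alone, without 24 h replicate 2 and without 6 h replicate 1. The position of ACACA overlaps that of C17orf78, and reads of this pair may not be separable.

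All 10 genes of the proliferation list fell, beside 17.7% of all genes tested, with a median of -4.19 on the log2 scale. TOP2A, the topoisomerase of dividing cells, had 467 and 485 normalized counts at 24 h and 13882 and 11818 at 6 h, a fall of 4.75 (adjusted p = 3.85e-24). CDK1, the mitotic kinase, fell by 4.47 (adjusted p = 1.99e-24). These markers moved in the direction of MXD3 and opposite to MYC, and their part in the values of the members was not tested.

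**Figure D4:**
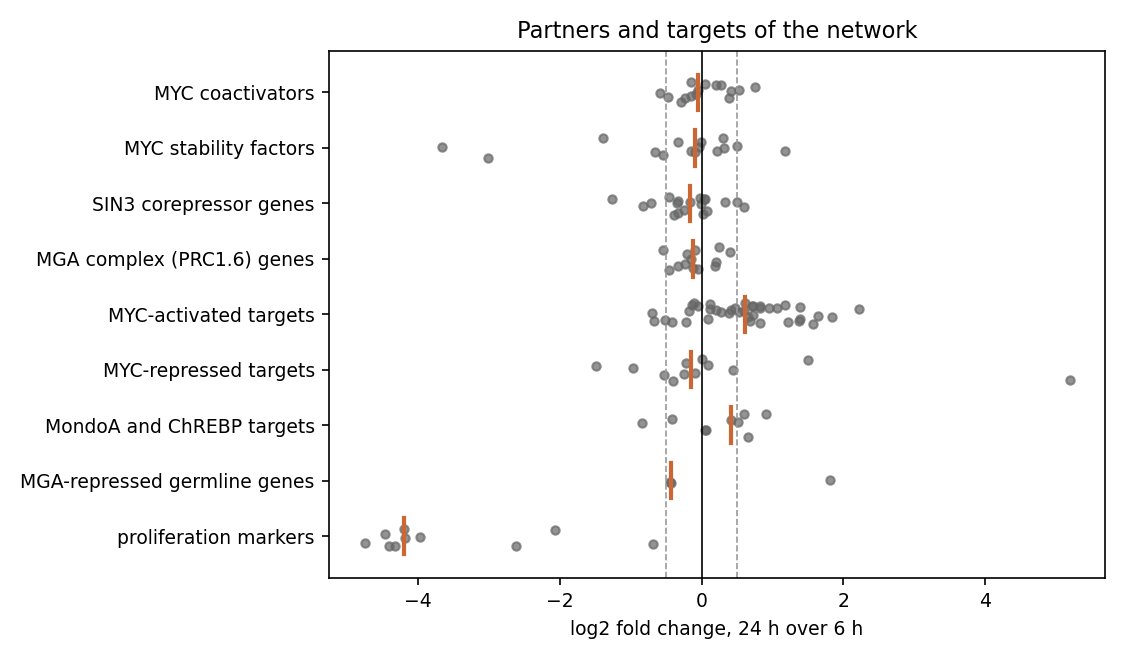
Log2 fold change at 24 h relative to 6 h of each tested gene in 9 of the lists (the family list, with 1 tested gene, is left out), as points, with a coloured bar at the median of each list, a solid line at 0 and dashed lines at the fold cutoffs. The MYC-activated targets have a median of 0.61 and the proliferation markers of -4.19, while the medians of the coactivator and corepressor lists lie at -0.05 and -0.17.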

How the data were processed

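RNA from TPC1 cells treated with BLU6864 was sequenced in 2 libraries per time. The authors deposited a raw read count per gene, aligned per the labels with STAR 2.3 to hg19, and a normalized signal, the count over a DESeq2 size factor, which was only checked here. The methods of the study name a later STAR version. The counting program and its strand setting are not given in the sources used here. The authors' columns of mean, log2 fold change, standard error, Wald statistic and p-values were not used.

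The test was edgeR 4.0.16, run in R 4.3.3 on the raw counts of the 12876 genes kept by filterByExpr, with TMM scaling and the quasi-likelihood test across all genes, time as the single factor, and Benjamini-Hochberg adjustment. The biological coefficient of variation was 0.0521. For normalized counts, each count was divided by its library's TMM-scaled size and multiplied by the mean such size. Standard errors come from the fitted weights and dispersion of the model, scaled by the root of the moderated quasi-likelihood dispersion and put on the log2 scale. Exon lengths for RPKM came from GENCODE v44, matched by Ensembl identifier, and the annotation used for counting on hg19 may differ from it. Positions are those of the table on hg19, and promoters are RefSeq windows on GRCh38.p14, which were not mixed. The fit was tested on simulated counts.

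Members and lists were chosen with earlier results of these data known. Named were all members, other MYC and ChREBP family genes, genes that overlap a member, and in each list up to 3 genes with the largest rise and up to 3 with the largest fall past the cutoffs with separated libraries, of which the text gives most. The values of some list genes are not reported here. Alternatives were DESeq2 1.42.0, 2 other scalings, 2 other filters, a replicate block, leaving out each library, and the longest transcript as length.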

Additional observations from a re-analysis of the deposited data

How the results depend on the processing

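Over the alternatives, the log2 fold change of MYC ran from 2.47 to 2.54 and that of MXD3 from -3.81 to -3.74. The number of members past the cutoffs on the higher side was 3, with 2 under library size alone (without MGA), 4 with upper quartile scaling (with MNT) and 2 to 4 when a library was left out. MGA was lost without 24 h replicate 1, where MNT took its place, and without 6 h replicate 1, while MNT was added without 6 h replicate 2. The lower side held 2 members in every setting. With the replicate block these counts were 3 and 2. Deviations of same-numbered libraries correlated at 0.0844 over genes. This shows no pairing by number, but with 2 libraries per time it cannot exclude one. Library size alone moved the median of all genes to -0.04.

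Of 242 alternatives for the member and list counts together, 219 stayed within 1.5 times. For the risen family genes, 1 (MYCL) became 0 under DESeq2 and with at least 10 counts in every library. With library size alone, the coactivators had 1 risen (KAT2A) and 2 fallen genes (with CDK9), and the stability genes 1 risen (USP36). The corepressors had 2 risen genes (with SIN3B) under upper quartile scaling and with at least 10 counts. The germline genes had 0 risen with at least 10 counts and 1 fallen (DAZL) with no filter. Leaving out a library gave 0 to 1 risen family genes (0 without 24 h replicate 2 and without 6 h replicate 2), 1 to 2 fallen coactivators and 1 to 2 risen stability genes. It gave 0 to 2 risen corepressors (0 without 24 h replicate 2), 1 to 2 fallen PRC1.6 genes (with PCGF6 without 6 h replicate 2) and 1 to 2 fallen MondoA targets (with ARRDC4 without 6 h replicate 2). The germline genes had 0 to 1 risen (0 without 6 h replicate 2) and 0 to 2 fallen (2 without 24 h replicate 2). In these fits the lone library was assumed to vary like the other pair, and the cause of these shifts was not tested. No called direction turned, while the log2 fold changes of MXI1 and MLX, which overlapped between the times, crossed 0. RPKM levels by the longest transcript were higher, and the only change of order was MAX at 14.1 above MLXIP at 12.96 at 24 h. Genes with few counts, such as MYCL and MAEL, are limited by depth.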
